A study of Mus musculus with 30 samples.

Results

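Fat-rich and fat-poor tumours were the 10 tumours with the highest and the 10 with the lowest fat score among 30 mammary tumours of backcross mice. The score was the mean, over 6 genes that fat cells use, of log2(RPKM + 1) standardised over the 30 tumours, where RPKM counts reads per kilobase of transcript and per unit of library size. The 6 genes were Adipoq, Plin1, Cidec, Cfd, Lep and Retn, so these tumours were selected on measured values, and the 6 genes were described and not tested. The other 10 tumours lay between and are called the middle tumours. MOLF, a strain bred from wild mice, had been mated to mice that carry polyoma middle T antigen (PyMT), a viral protein that causes mammary tumours, and the offspring were mated to FVB. All 3 sets of tumours share this oncogene and this ((MOLF x PyMT) x FVB) background, in which the MOLF segments differ from mouse to mouse. A single tumour per animal was sequenced as poly-A selected bulk RNA. No treatment, stage, age, genotype at single loci or share of tumour cells is in the labels, which make no distinction between the 30 tumours. A mouse is called here by its animal number.

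The mammary gland grows inside a pad of fat. White fat cells keep triglyceride in 1 large droplet coated with perilipin, draw fatty acids from blood lipoproteins, make fatty acids and glycerol phosphate from glucose, and release fatty acids when adrenergic receptors are engaged. They also secrete hormones, among them adiponectin, leptin and resistin. The nuclear receptor PPARG and the C/EBP proteins turn on fat cell genes during differentiation, and brown fat cells burn fuel for heat through the mitochondrial uncoupling protein UCP1.

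The start regions of 4 of these genes are shown because they hold the letters that C/EBP proteins are known to bind, here TTGCNNAA on either strand, which are in capitals. Plin1, Cidec and Lep belong to the fat score, and Pparg was higher in fat-rich tumours. Each window is 300 bases, from 250 before to 50 after the start of the gene, in RefSeq's GRCm38.p6. The build behind the expression values is not given in the sources used here.
Plin1, chr7:79732727-79733026, minus strand: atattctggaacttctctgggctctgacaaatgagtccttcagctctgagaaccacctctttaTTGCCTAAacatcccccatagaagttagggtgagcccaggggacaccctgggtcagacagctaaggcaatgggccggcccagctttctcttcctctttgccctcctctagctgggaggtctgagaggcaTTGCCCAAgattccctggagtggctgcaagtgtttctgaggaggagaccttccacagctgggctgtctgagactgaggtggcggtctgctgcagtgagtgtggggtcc
Cidec, chr6:113434715-113435014, minus strand: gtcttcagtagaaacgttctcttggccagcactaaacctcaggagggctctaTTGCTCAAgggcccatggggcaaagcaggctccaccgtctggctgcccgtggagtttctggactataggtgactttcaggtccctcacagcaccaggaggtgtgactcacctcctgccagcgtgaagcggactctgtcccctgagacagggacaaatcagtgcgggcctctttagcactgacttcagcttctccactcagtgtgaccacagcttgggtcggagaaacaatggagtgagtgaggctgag
Lep, chr6:29059971-29060270, plus strand: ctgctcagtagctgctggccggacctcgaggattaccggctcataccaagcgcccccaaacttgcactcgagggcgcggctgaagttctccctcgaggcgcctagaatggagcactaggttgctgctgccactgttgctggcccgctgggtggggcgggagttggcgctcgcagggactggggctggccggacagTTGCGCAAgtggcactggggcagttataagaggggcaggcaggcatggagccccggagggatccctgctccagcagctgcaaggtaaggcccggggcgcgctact
Pparg, chr6:115421816-115422115, plus strand: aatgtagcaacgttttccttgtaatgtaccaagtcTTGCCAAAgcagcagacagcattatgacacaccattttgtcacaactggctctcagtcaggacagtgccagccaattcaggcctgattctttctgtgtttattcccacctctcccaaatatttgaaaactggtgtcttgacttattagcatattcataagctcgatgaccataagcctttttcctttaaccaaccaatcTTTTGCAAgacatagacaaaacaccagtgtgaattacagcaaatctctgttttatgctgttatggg

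The match began 187 and 58 bases before the start in Plin1, 198 bases before it in Cidec and 55 bases before it in Lep. In the Pparg window it began 215 and 16 bases before the start, and these matches overlapped no other motif searched. The other windows of Cidec and Pparg held no match. A match is a description and neither a bound site nor a cause. Of the 7 windows of the 6 score genes, 3 held the letters, against 3547 of all 32851 windows in the table, or 10.8%. Among the genes that were higher in fat-rich tumours (258 genes, 1.9% of those tested), 178 had a window, and 27 of their 229 windows (11.8%) held the letters. The share was 8.55% over the windows of all genes tested (1173 of 13719). Of the lists described below, it was 10.3% for the fat cell list genes that rose (4 of 39 windows). For the skeletal muscle list it was 30.8% (4 of 13 windows). These shares were not tested against each other. A second arrangement, AGGTCA repeated after 1 base on either strand, is the element known for PPARG with its partner RXR. It stood in 13 of the 32851 windows and in none of the 229, which says only that these letters were not in these stretches.

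Within the score, all 6 genes were far apart between the extremes. Where 3 RPKM values are given for a set of tumours, they are its lowest, median and highest. Adipoq, which encodes adiponectin, had 12.5, 23.5 and 126 RPKM in fat-rich tumours, against 1.12, 2.17 and 3.29 RPKM in fat-poor tumours. Cfd, the complement factor adipsin, was the most abundant, at 147, 254 and 915 RPKM in fat-rich tumours, against 13.5, 29 and 40.7 RPKM in fat-poor tumours. Plin1, the perilipin of the large droplet, had 7.39, 12.5 and 75.5 RPKM in fat-rich tumours, against 0.679, 1.21 and 1.59 RPKM in fat-poor tumours. These 3 genes did not overlap between the sets, which the choice of tumours favours. Cidec, which helps droplets fuse, had 12.7 to 97.0 RPKM in fat-rich tumours, against 2.12 to 4.45 RPKM in fat-poor tumours. Retn (resistin) had 7.65 to 57.5 RPKM in fat-rich tumours, against 1.26 to 3.89 RPKM in fat-poor tumours. Lep (leptin) was low throughout, at 0.114, 0.805 and 5.30 RPKM in fat-rich tumours, against 0.022, 0.0695 and 0.159 RPKM in fat-poor tumours, and it alone of the 6 overlapped.

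The fat score was graded and had no gap at the limits of the sets. The score was 0.3765 in the last fat-rich tumour (animal 4139), against 0.2871 in the first middle one (animal 4262). At the other limit it was -0.6196 in the last middle tumour (animal 4638), against -0.6574 in the first fat-poor one (animal 4315). Scores among fat-rich tumours ran up to 2.6818 in animal 4036 and exceeded 1 in 4 others (4142, 3273, 4357 and 4038), while fat-poor scores ran down to -1.1642. A score from 6 other fat cell genes (Fabp4, Lpl, Cd36, Plin4, Lipe and Pparg) put 8 of the 10 fat-rich and 8 of the 10 fat-poor tumours in the same set.

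**Figure D1:**
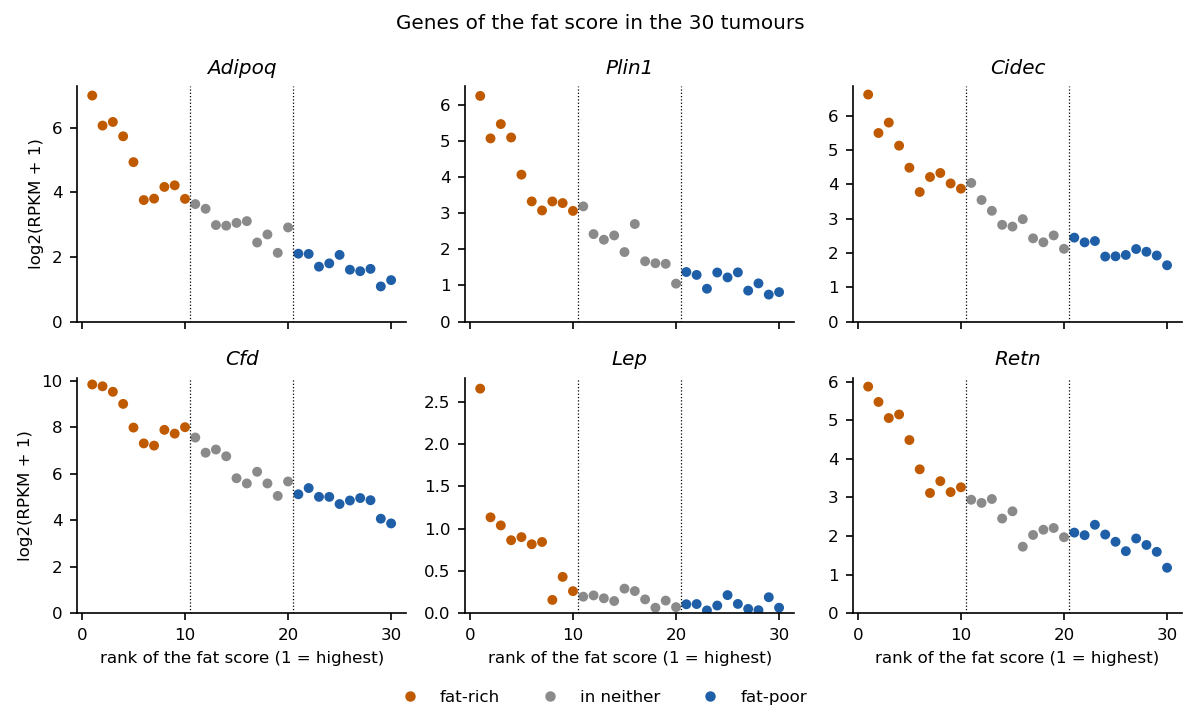
Level of the 6 score genes, as log2(RPKM + 1), in each of the 30 tumours, placed by rank of the fat score with the highest at the left; dotted lines mark the limits of the fat-rich and fat-poor sets. Levels fall without a step at either limit, and animal 4036 (rank 1) stands above the rest for Lep at 5.30 RPKM.

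Read depth was inferred from the spacing of low RPKM values. It fell into 14 deep libraries (117 to 197 M reads) and 16 shallow ones (42.7 to 62.0 M reads). Fat-rich tumours held 4 deep and 6 shallow libraries, and fat-poor tumours 6 deep and 4 shallow. The mean insert size in the labels was 257 ± 19 in fat-rich tumours and 242 ± 19.5 in fat-poor tumours (SD, n = 10 each; its unit is not given). Of 15 luminal epithelial genes, which mark the labelled tissue, 13 passed the filter on low values. Epcam, an epithelial adhesion molecule, had 313, 415 and 467 RPKM in fat-rich tumours, against 352, 446 and 538 RPKM in fat-poor tumours. The hormone receptor genes of the list were low, with medians of 2.17 RPKM in fat-rich and 1.46 RPKM in fat-poor tumours for Esr1 and of 0.325 and 0.0845 RPKM in fat-rich and fat-poor tumours for Pgr. Foxa1, a luminal transcription factor, had medians of 1.21 RPKM in fat-rich and 0.161 RPKM in fat-poor tumours, and it and Pgr were under the filter.

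Across the genome, fat-rich tumours differed from fat-poor ones mostly by genes that were higher. Of 13608 genes tested with limma (average level 1 RPKM or more, two-sided, Benjamini-Hochberg adjusted p of at most 0.05), 258 rose in fat-rich tumours (1.9%) and 17 fell (0.125%), together 275 (2.02%). Most single genes leaned slightly the other way: the log2 difference, which is the mean log2(RPKM + 1) of fat-rich minus that of fat-poor tumours, was negative for 7808 genes and positive for 5800, with a median of -0.028. The sets did not overlap at all for 32 genes, and all 32 were higher in fat-rich tumours and past the threshold. A gene that is high only in fat-rich tumours can pass the filter on low values through them, so shares of genes that passed are descriptions. The RNA was bulk, and fewer cells of a type and less RNA per cell cannot be told apart.

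Car3, the carbonic anhydrase that fat and muscle hold in great amounts, showed the largest difference of the genes outside the lists described below and the smallest p. It had 934 RPKM in animal 4036, 648 in 4142, 978 in 3273 and 686 in 4357, and 128 to 235 RPKM in the other 6 fat-rich tumours, against 2.40, 14.3 and 20.6 RPKM in fat-poor tumours. The log2 difference was 4.74 ± 0.42 (SE; limma, Benjamini-Hochberg adjusted p = 1.81e-06), with no overlap. Mrap, a partner of melanocortin receptors, had 1.69, 2.94 and 11.1 RPKM in fat-rich tumours, against 0.155, 0.356 and 0.624 RPKM in fat-poor tumours (log2 difference 1.89 ± 0.24, adjusted p = 0.000281). Ppp1r1a, an inhibitor of protein phosphatase 1, had 1.45, 3.08 and 13 RPKM in fat-rich tumours, against 0, 0.222 and 0.726 RPKM in fat-poor tumours (log2 difference 1.83 ± 0.24). Pnpla3, a lipase-like protein of lipid droplets, had 1.88, 3.12 and 8.41 RPKM in fat-rich tumours, against 0.378, 0.826 and 1.42 RPKM in fat-poor tumours (log2 difference 1.46 ± 0.21). In all 4 genes every fat-rich tumour was above every fat-poor one.

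**Figure D2:**
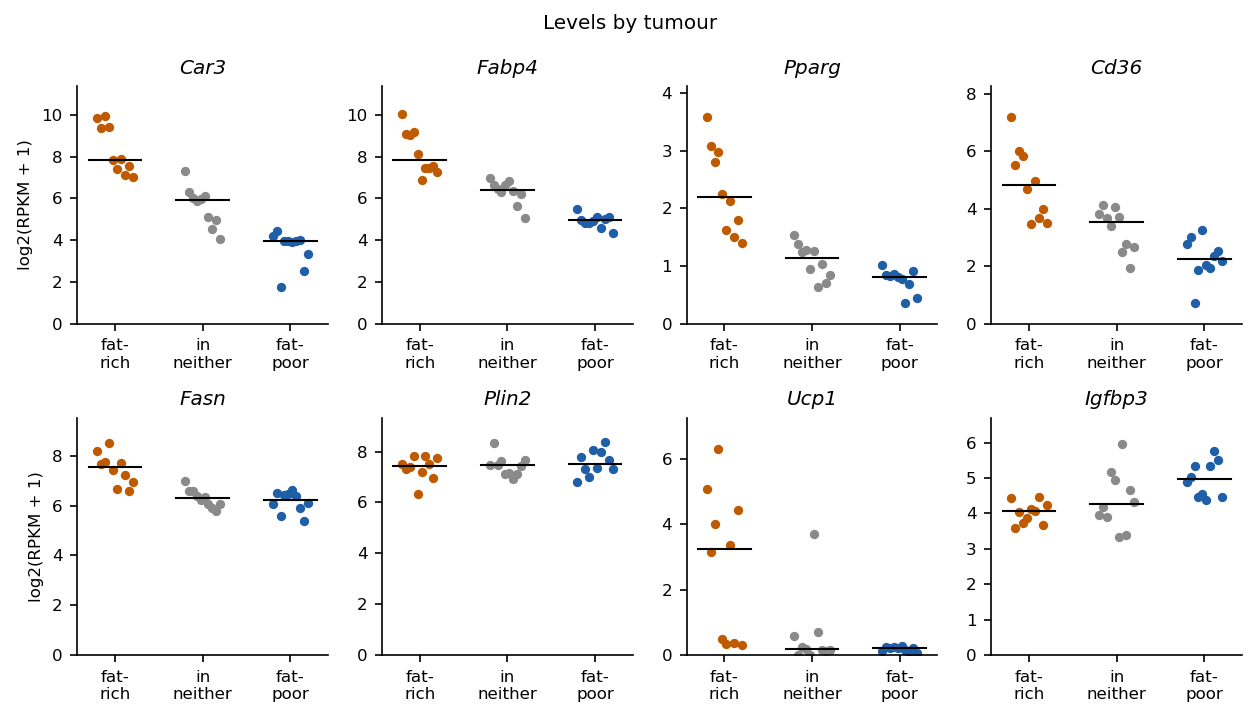
Level of 8 genes, as log2(RPKM + 1), in each tumour of the fat-rich, middle and fat-poor sets (n = 10 each); lines are medians. Car3, Fabp4, Pparg and Cd36 do not overlap between fat-rich and fat-poor tumours, Plin2 overlaps, Ucp1 splits the fat-rich tumours, and Igfbp3 is lower in fat-rich tumours.

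Within the lipid droplet list, Dgat2 and Plin4 were higher in fat-rich tumours, and the abundant droplet coat gene Plin2 did not pass the test. Of 10 genes of the lipid droplet list, 2 rose and none fell, with a list median of 0.47 on the log2 difference scale. For this and every list that follows, the background is the 1.9% of all genes tested that rose, the 0.125% that fell and their median difference of -0.028. Dgat2, which adds the last fatty acid to triglyceride, had 9.89, 23.5 and 95.6 RPKM in fat-rich tumours, against 1.02, 3.26 and 4.99 RPKM in fat-poor tumours. Its log2 difference was 2.79 ± 0.35 (limma, adjusted p = 0.000264) with no overlap, whereas its counterpart Dgat1 had medians of 44.5 RPKM in fat-rich and 37.2 RPKM in fat-poor tumours and did not pass. Plin4, a perilipin typical of fat cells, had 3.54, 11.2 and 51.6 RPKM in fat-rich tumours, against 1.31, 2.04 and 2.94 RPKM in fat-poor tumours. Plin2, the perilipin of most other cells, had 78.9, 173 and 226 RPKM in fat-rich tumours, against 111, 183 and 334 RPKM in fat-poor tumours (log2 difference -0.21 ± 0.20, adjusted p = 0.693). The Plin2 ranges overlapped, with the lowest tumour fat-rich and the highest fat-poor.

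Lipolysis genes rose at the adrenergic receptor and at the first lipases. Of 11 genes, 3 rose and none fell, all 11 had positive differences, and the list median was 0.53. Adrb3, the beta-3 adrenergic receptor that starts lipolysis, had 1.30, 3.33 and 14.3 RPKM in fat-rich tumours, against 0.374, 0.516 and 0.775 RPKM in fat-poor tumours, without overlap (log2 difference 1.88 ± 0.32, limma adjusted p = 0.0042). Lipe, hormone-sensitive lipase, had 14.3, 22.3 and 76.8 RPKM in fat-rich tumours, against 6.42, 10.4 and 15.4 RPKM in fat-poor tumours (log2 difference 1.37 ± 0.26). For Lipe, 9 of the fat-rich tumours were above the highest fat-poor one. Pnpla2, the lipase that acts on triglyceride, rose with a log2 difference of 0.53. Abhd5, its activator, had medians of 81.8 RPKM in fat-rich and 81.1 RPKM in fat-poor tumours.

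Uptake of fatty acids was marked by 4 genes of 10 that rose; none fell, and the list median was 0.37. Fabp4, the fatty acid carrier of fat cells, had 116, 233 and 1066.5 RPKM in fat-rich tumours, against 19.5, 29.7 and 44.4 RPKM in fat-poor tumours. Its log2 difference was 3.30 ± 0.32 (limma, adjusted p = 6.38e-06) with no overlap. Fabp5, the carrier of epithelium and macrophages, had 70.3, 90.9 and 155 RPKM in fat-rich tumours, against 91.1, 170 and 635 RPKM in fat-poor tumours (log2 difference -0.87 ± 0.27, adjusted p = 0.0973). The Fabp4 values were thus apart and the Fabp5 values overlapped with their medians the other way round. Cd36, a surface fatty acid transporter, had 10, 27.4 and 146 RPKM in fat-rich tumours, against 0.637, 3.77 and 8.49 RPKM in fat-poor tumours, without overlap (log2 difference 2.63 ± 0.42). Lpl, which frees fatty acids from lipoproteins, had 16.3, 38.7 and 190 RPKM in fat-rich tumours, against 4.54, 8.38 and 30.4 RPKM in fat-poor tumours (log2 difference 2.04 ± 0.39, adjusted p = 0.00942). Acsl1, which activates fatty acids, also rose, and Vldlr, Slc27a1 and Slc27a4 did not pass the test.

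The synthesis list had the most genes past the threshold of the fat cell lists. Of its 15 genes, 8 rose, none fell and all 15 had positive differences, with a list median of 0.62. Pck1, which supplies glycerol phosphate for triglyceride, had 3, 16.3 and 103 RPKM in fat-rich tumours, against 0.634, 0.936 and 1.76 RPKM in fat-poor tumours (log2 difference 3.39 ± 0.47, limma adjusted p = 0.000808). Fasn, the fatty acid synthase, had 94.2, 188 and 366 RPKM in fat-rich tumours, against 40.3, 75.0 and 99.0 RPKM in fat-poor tumours (log2 difference 1.33 ± 0.22, adjusted p = 0.00347). Pck1 did not overlap, and for Fasn 1 fat-rich tumour lay within the fat-poor range. Acaca and Acacb, which make malonyl-CoA, rose with log2 differences of 1.01 and 1.20, and Agpat2, which forms phosphatidic acid, rose by 1.16. Gpd1, Pcx and the citrate carrier Slc25a1 completed the 8. Acly had medians of 169 RPKM in fat-rich and 142 RPKM in fat-poor tumours, and Thrsp, the most level member, had medians of 274 and 260 RPKM in fat-rich and fat-poor tumours.

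Among transcription factors of fat cells, 4 of the 11 tested rose and none fell, with a list median of 0.54. Pparg had 1.64, 3.57 and 11 RPKM in fat-rich tumours, against 0.276, 0.756 and 1.03 RPKM in fat-poor tumours. Its log2 difference was 1.57 ± 0.23 (limma, adjusted p = 0.0012), and no tumour overlapped. Cebpa, the C/EBP factor of mature fat cells, had 15.8, 22.1 and 39.2 RPKM in fat-rich tumours, against 12, 15.4 and 19.4 RPKM in fat-poor tumours (log2 difference 0.61 ± 0.15, adjusted p = 0.0399). Mlxipl and Nr1h3, which sense glucose products and oxysterols, rose with log2 differences of 0.86 and 0.54. Cebpb, the C/EBP factor of early differentiation, had 41.3, 44.8 and 100 RPKM in fat-rich tumours, against 38.1, 57.2 and 120 RPKM in fat-poor tumours and did not pass. Srebf1, a driver of lipid synthesis in many tissues, had medians of 454 RPKM in fat-rich and 362 RPKM in fat-poor tumours with overlapping ranges (adjusted p = 0.795). Rxrg and Ebf2 were under the filter, and Rxrg had 0.166, 0.858 and 5.61 RPKM in fat-rich tumours, against 0, 0.0155 and 0.219 RPKM in fat-poor tumours.

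Of the insulin response genes, 2 of 10 rose, none fell, and the list median was 0.33. Trarg1, a partner of the insulin-regulated glucose transporter, had 0.854, 2.23 and 12.4 RPKM in fat-rich tumours, against 0.290, 0.470 and 0.575 RPKM in fat-poor tumours, without overlap (log2 difference 1.42 ± 0.26, limma adjusted p = 0.00861). The transporter itself, Slc2a4, had 7.49, 15.7 and 36.0 RPKM in fat-rich tumours, against 5.62, 8.75 and 16.6 RPKM in fat-poor tumours (log2 difference 0.75 ± 0.24, adjusted p = 0.111). Insr, the insulin receptor, had medians of 8.85 RPKM in fat-rich and 8.56 RPKM in fat-poor tumours. In the caveola list, the membrane pits of fat and endothelial cells, 2 of 6 genes rose. Cav1, the caveolin of these pits, had 13.8, 21 and 65 RPKM in fat-rich tumours, against 6.04, 9.20 and 15.3 RPKM in fat-poor tumours (log2 difference 1.29 ± 0.23, adjusted p = 0.007).

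Of 12 further secreted proteins of fat cells, 3 rose and none fell, with a list median of 0.48. Rbp4, the plasma carrier of retinol, had 2.34, 7.73 and 31.1 RPKM in fat-rich tumours, against 0.357, 0.729 and 1.41 RPKM in fat-poor tumours, without overlap (log2 difference 2.40 ± 0.37, limma adjusted p = 0.0015). Retnla, a resistin-like protein that macrophages also make, had 8.73, 39.7 and 199 RPKM in fat-rich tumours, against 0.663, 4.31 and 59.5 RPKM in fat-poor tumours, with overlap (log2 difference 2.80 ± 0.56). Igf1 was the third. Agt, angiotensinogen, had medians of 4.32 RPKM in fat-rich and 3.81 RPKM in fat-poor tumours and did not pass. Receptors for fat hormones showed 1 of 7 genes past the threshold. Adipor2, an adiponectin receptor, had 26.2, 32.9 and 45.6 RPKM in fat-rich tumours, against 14.9, 24.8 and 29.6 RPKM in fat-poor tumours (log2 difference 0.49 ± 0.12, adjusted p = 0.033). Adipor1 had medians of 98.7 RPKM in fat-rich and 95.1 RPKM in fat-poor tumours, and the leptin receptor Lepr had medians of 4.76 and 4.59 RPKM in fat-rich and fat-poor tumours.

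Ucp1, the uncoupling protein of brown fat, was high in some fat-rich tumours and low in others. It had 32.4 RPKM in animal 4036, 7.77 in 4142, 14.9 in 3273, 76.7 in 4357, 9.19 in 3540 and 20.8 in 4516, and 0.236 to 0.398 RPKM in the other 4 fat-rich tumours. Fat-poor tumours had 0.042, 0.153 and 0.208 RPKM of Ucp1, and 1 middle tumour, animal 4459, had 12.1 RPKM against at most 0.630 RPKM in the other middle tumours. The log2 difference was 2.59 ± 0.65 (limma, adjusted p = 0.0409); the sets did not overlap, but leaving out 1 tumour ended the call in 16 of 20 fits. High Ucp1 did not follow the order of the fat score: animal 4038, with a score of 1.0446, had 0.398 RPKM, and animal 4516, with a score of 0.4729, had 20.8 RPKM. Of the 6 fat-rich tumours with high Ucp1, 5 were shallow libraries with 2902 RPKM or more of summed muscle genes, and animal 4036 was deep with 34.0 RPKM. Of the 4 with low Ucp1, 3 were deep with 756 RPKM or less and animal 4144 was shallow with 3817 RPKM. The part of muscle, depth and insert size in this split was not tested. Cox8b, a respiratory subunit of brown fat that striated muscle also uses, had 5.89, 23.2 and 86.9 RPKM in fat-rich tumours, against 2.35, 4.12 and 7.18 RPKM in fat-poor tumours (log2 difference 2.21 ± 0.39, adjusted p = 0.00506). Pdk4, which spares glucose in fat and muscle, was the third of 5 tested genes that rose. Ppargc1a, the coactivator of mitochondrial genes, had medians of 1.03 RPKM in fat-rich and 0.843 RPKM in fat-poor tumours, and the other 5 genes of the list, Prdm16 and Zic1 among them, were under the filter.

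No gene of the fuel-burning lists passed the test. These were 12 fatty acid oxidation genes (list median of the log2 difference 0.16), 12 genes of branched chain amino acid breakdown (0.08) and 14 oxidative phosphorylation genes (0.01). Acadvl, the first dehydrogenase for long chains, had 84.4, 111 and 142 RPKM in fat-rich tumours, against 81.5, 96.0 and 103 RPKM in fat-poor tumours (log2 difference 0.22 ± 0.09, limma adjusted p = 0.214). Of 7 steroid and retinoid enzymes, 4 rose, with a list median of 0.85. Cyp2e1, a cytochrome P450 of fat and liver, had 2.28, 14.4 and 67.3 RPKM in fat-rich tumours, against 0.094, 0.894 and 3.16 RPKM in fat-poor tumours (log2 difference 2.87 ± 0.48, adjusted p = 0.00339). For Cyp2e1, 9 fat-rich tumours exceeded every fat-poor one. The aromatase gene Cyp19a1 was listed at 0 in all 20 tumours.

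**Figure D3:**
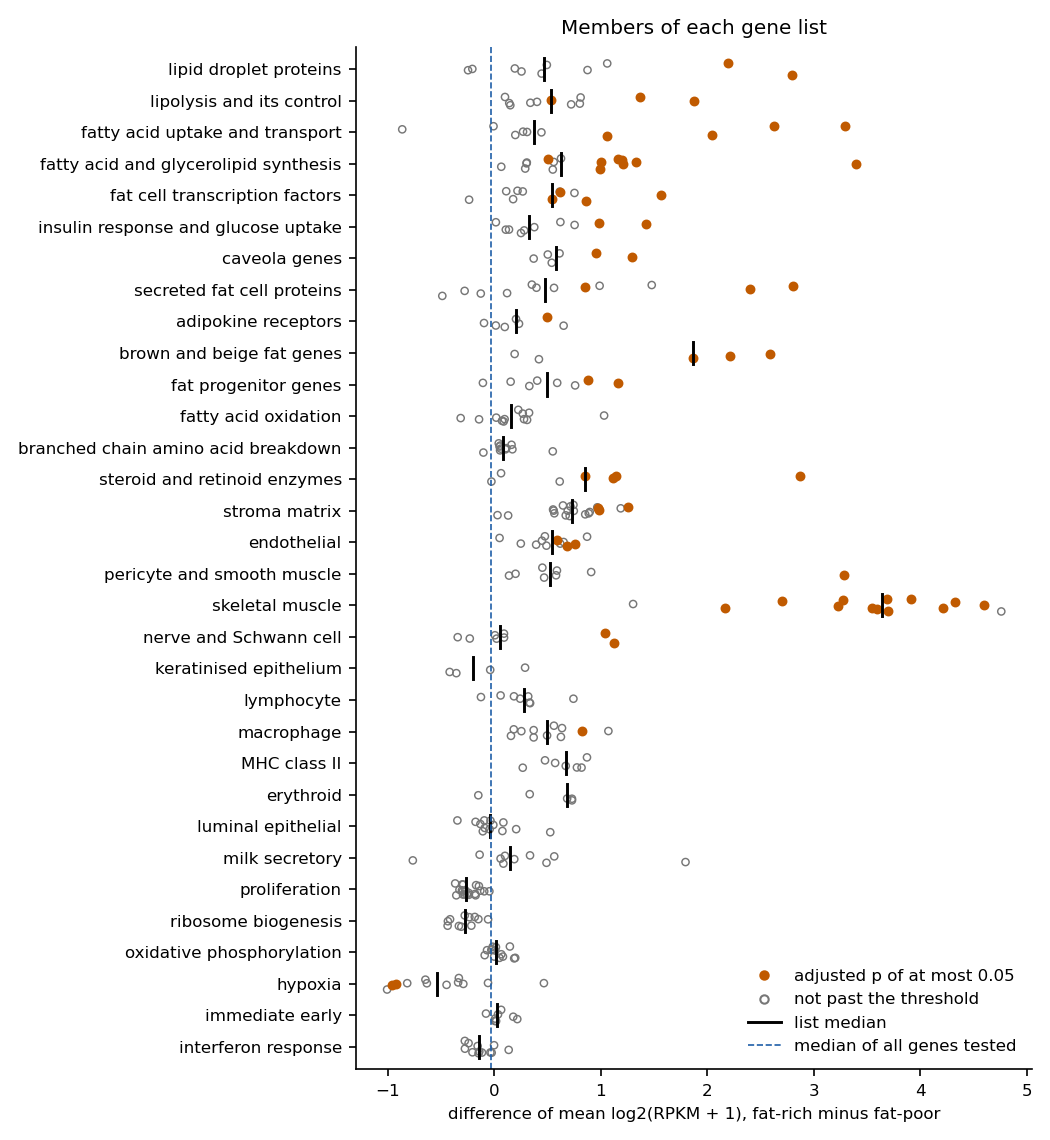
Log2 difference, fat-rich minus fat-poor tumours, of each tested member of 32 gene lists; filled points passed the adjusted p threshold of 0.05, bars are list medians and the dashed line is the median of all 13608 genes (-0.028). The skeletal muscle median lies farthest to the right, the medians of the fat cell lists lie right of the line, and those of proliferation, ribosome biogenesis and hypoxia lie left of it.

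Skeletal muscle genes were also higher in most of the fat-rich tumours. Of 14 skeletal muscle genes, 12 rose, with a list median of 3.64, and muscle genes made up most of the largest differences outside the lists. Myh4, the fastest myosin heavy chain, had 0.075, 247 and 1323 RPKM in fat-rich tumours, against 0, 1.16 and 15.1 RPKM in fat-poor tumours (log2 difference 4.60 ± 1.15, limma adjusted p = 0.0403). Acta1, skeletal actin, had 0.551, 859 and 4653 RPKM in fat-rich tumours, against 0.814, 4.84 and 91.3 RPKM in fat-poor tumours (log2 difference 4.76 ± 1.29, adjusted p = 0.0573). Both genes overlapped between the sets. The myosin heavy chain genes are similar in sequence, so some reads could be split between Myh1, Myh2, Myh4 and Myh8, which was not checked. Of the 15 genes outside the lists with the largest positive differences, Myl1, Myh8, Actn2, Mybpc1, Myom2, Pygm, Pgam2, Ldb3, Casq1, Tcap and Cox6a2 encode proteins of the muscle fibre or its metabolism, with log2 differences of 2.46 to 4.37. Car3, Eef1a2 and Fhl1 were also among the 15.

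The amount of muscle was uneven within the fat-rich tumours. Summed over the 14 genes, it was 34.0, 3099 and 17081 RPKM in fat-rich tumours, against 39.0, 69.4 and 318 RPKM in fat-poor tumours. Animal 4036, with the highest fat score, had the least muscle RNA of all 30 tumours (34.0 RPKM), and animal 4038 had 43.6 RPKM. Animals 3273 (17081 RPKM) and 4357 (6593 RPKM) had the most. All 6 shallow fat-rich libraries had 2902 RPKM or more and all 4 deep ones 756 RPKM or less. The mean insert size was 267.7 to 275.7 in these shallow libraries and 231.1 to 242.8 in these deep ones. Within fat-rich tumours muscle, library depth and insert size thus cannot be told apart. The median muscle difference was 5.24 within the shallow libraries and 0.78 within the deep ones.

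**Figure D4:**
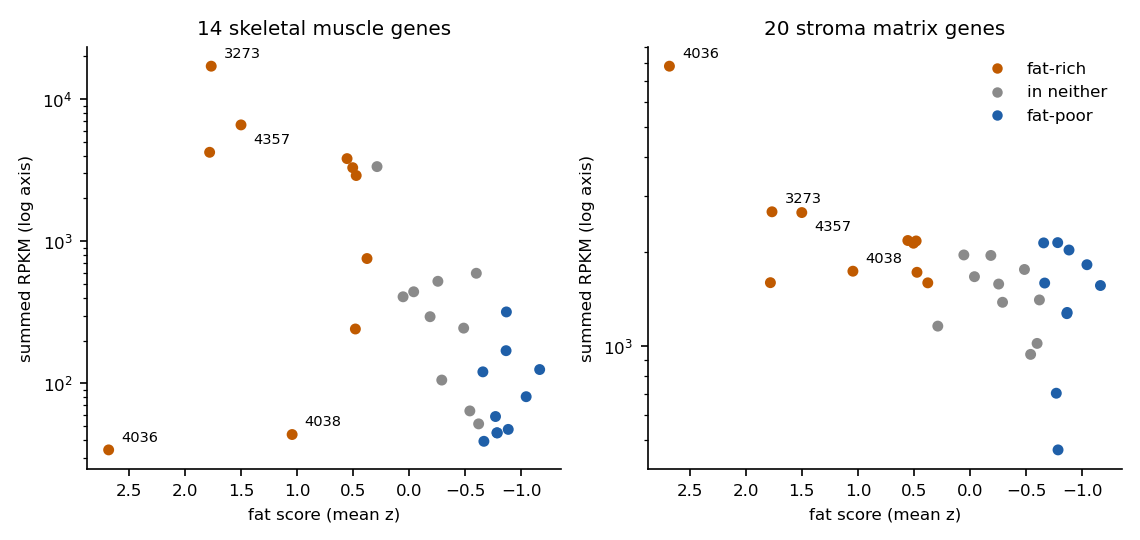
Summed RPKM (log axis) of 14 skeletal muscle genes and of 20 stroma matrix genes against the fat score of each of the 30 tumours, with the highest score at the left. Animals 4036 and 4038 have high fat scores with muscle at 34.0 and 43.6 RPKM, and animal 4036 has the most stroma at 7827 RPKM.

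The fat cell list medians named here were positive when muscle was taken into account, but few single genes passed the test. A muscle score as a covariate was an alternative added after the data were seen. With it, 4 genes rose (Car3, Fabp4, Dgat2 and Mrap) and none fell, where 275 had passed. Of these 275, 97.5% had the same sign, against 78.9% of all genes tested. That fit used the same tumours that chose the 275, which favours the same sign, so these shares are descriptions. List medians under that covariate were 0.51 for lipolysis, 0.51 for synthesis, 0.51 for transcription factors and 1.07 for brown fat genes. The skeletal muscle median was -0.0074, which the fit itself brings near 0 because the score is made of these genes. With the stroma score as a covariate the medians were 0.36 for lipolysis, 0.50 for synthesis, 0.34 for transcription factors and 1.37 for brown fat genes. Without animals 3273 and 4357, 46 genes rose and 2 fell. Pparg had log2 differences of 1.60 with the covariate (adjusted p = 0.0915) and 1.57 without it, and Fabp4 3.41 with it (adjusted p = 0.000842). Ucp1 had 1.73 with it (adjusted p = 0.788).

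**Figure D5:**
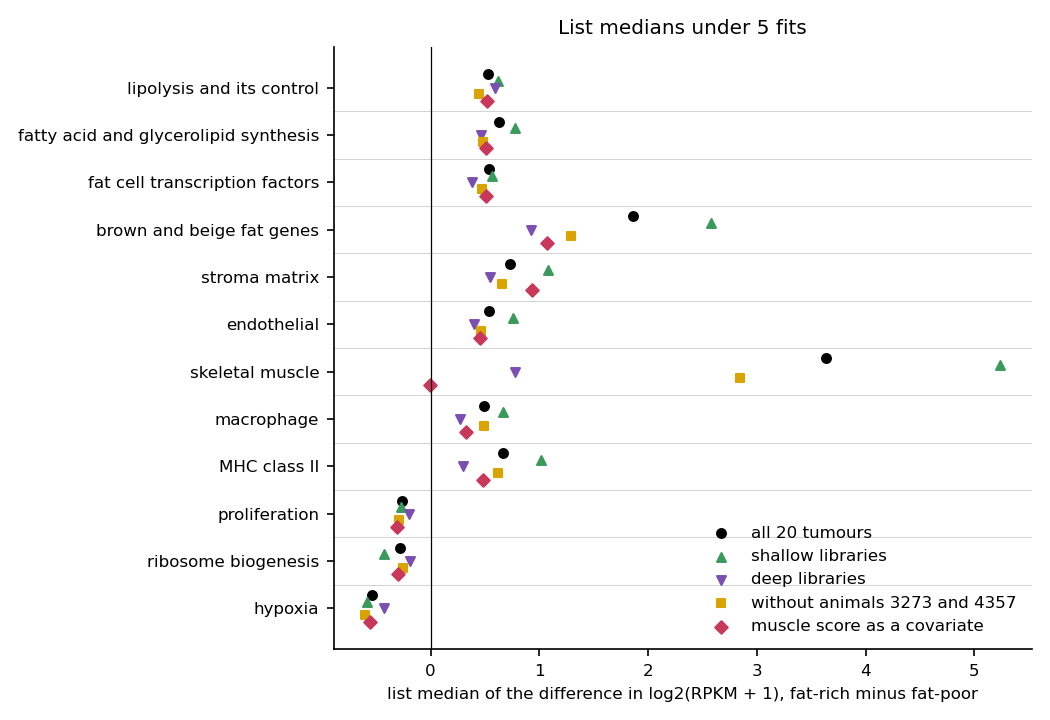
Median log2 difference, fat-rich minus fat-poor tumours, of 12 gene lists under 5 fits: all 20 tumours, shallow libraries alone, deep libraries alone, without the animals with the most muscle, and with a muscle score as a covariate. The lipolysis, synthesis and transcription factor medians lie between 0.38 and 0.78 in these 5 fits; the skeletal muscle median is 5.24 in shallow and 0.78 in deep libraries, and its value near 0 with the muscle score follows from how that score is made.

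Matrix and vessel genes leaned upward in fat-rich tumours, with few of them past the threshold. All 20 stroma matrix genes had positive differences and 3 passed, with a list median of 0.73. Dcn (decorin), which binds collagen fibrils, had 38.6, 63.5 and 210 RPKM in fat-rich tumours, against 17.3, 29.9 and 69.7 RPKM in fat-poor tumours (log2 difference 1.26 ± 0.29, limma adjusted p = 0.029). Col1a1, the main collagen chain, had 224, 414 and 1718 RPKM in fat-rich tumours, against 80.6, 324 and 497 RPKM in fat-poor tumours (log2 difference 0.55 ± 0.34, adjusted p = 0.482). The highest value of both genes was in animal 4036. Summed over the list, matrix RNA was 1589, 2145 and 7827 RPKM in fat-rich tumours, against 465, 1572 and 2136 RPKM in fat-poor tumours. With a stroma score as a covariate, 11 genes rose and 1 fell; among the genes that rose were Car3, Fabp4, Dgat2, Mrap, Ppp1r1a, Pck1, Plin4, Pcx, Pnpla3 and Cd209d.

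All 12 endothelial genes had positive differences and 3 rose, with a list median of 0.54. Pecam1, an adhesion molecule of vessels, had 12.9, 15.6 and 26.9 RPKM in fat-rich tumours, against 5.08, 11.2 and 16.2 RPKM in fat-poor tumours (log2 difference 0.68 ± 0.17, limma adjusted p = 0.0457). Summed over 13 endothelial genes, the level was 73.7 to 156 RPKM in fat-rich tumours, against 37.8 to 87.4 RPKM in fat-poor tumours. Of 8 fat progenitor genes 2 rose: Pi16, a marker of early fat progenitors, had 6.05, 17.3 and 30.9 RPKM in fat-rich tumours, against 2.12, 6.40 and 14.9 RPKM in fat-poor tumours, and Cd34 was the other. The Pi16 log2 difference was 1.16 ± 0.27. In the nerve list 2 of 8 genes rose, among them Pmp22, a protein of peripheral myelin, with medians of 10.6 RPKM in fat-rich and 4.78 RPKM in fat-poor tumours. Mbp, the myelin basic protein gene, had medians of 7.77 RPKM in fat-rich and 8.49 RPKM in fat-poor tumours and did not pass. In the list of pericytes and smooth muscle 1 of 8 rose, the intermediate filament Des, which skeletal muscle also holds.

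Within the macrophage, MHC class II and lymphocyte lists, 1 gene passed the test. Among 11 macrophage genes, Lyz2 (lysozyme) rose, with 168, 285 and 468 RPKM in fat-rich tumours, against 83.5, 164 and 286 RPKM in fat-poor tumours (log2 difference 0.82 ± 0.20, limma adjusted p = 0.04), and the list median was 0.49. None of 7 MHC class II genes passed (median 0.67), and H2-Aa had 102, 168 and 272 RPKM in fat-rich tumours, against 29, 96.7 and 203 RPKM in fat-poor tumours. None of 8 lymphocyte genes, 5 erythroid genes, 4 keratinised epithelial genes, 8 immediate early genes or 12 interferon genes passed. The part of stroma, vessels, macrophages and muscle in the fat cell differences was not tested beyond the covariate fits given here.

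No gene of the tumour epithelium lists passed the test, with list medians of -0.05 over 13 luminal genes and 0.14 over 10 milk genes. Krt8, a luminal keratin, had 284, 497 and 718 RPKM in fat-rich tumours, against 358, 482 and 686 RPKM in fat-poor tumours (log2 difference -0.10 ± 0.15). None of 20 proliferation genes passed either, although all 20 differences were negative and 8 had an unadjusted p under 0.05 (list median -0.27). Over all genes tested, 1988 of 13608 had an unadjusted p under 0.05. Mki67, a marker of cycling cells, had 17.2, 25.7 and 27.9 RPKM in fat-rich tumours, against 23.2, 29.9 and 47.5 RPKM in fat-poor tumours (log2 difference -0.36 ± 0.12, limma adjusted p = 0.153). All 11 ribosome biogenesis genes likewise had negative differences (list median -0.28) and none passed; Ncl, nucleolin, had 81.2, 85.1 and 127 RPKM in fat-rich tumours, against 92.3, 129 and 189 RPKM in fat-poor tumours (adjusted p = 0.0735).

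Of 12 hypoxia genes, 2 fell and none rose; 11 differences were negative, with a list median of -0.54. Ankrd37, a target of hypoxia-inducible factor, had 1.91, 2.25 and 4.17 RPKM in fat-rich tumours, against 2.65, 5.15 and 18.1 RPKM in fat-poor tumours (log2 difference -0.97 ± 0.21, limma adjusted p = 0.0232). Egln3, an oxygen-sensing hydroxylase, had 12.3, 47.1 and 61.5 RPKM in fat-rich tumours, against 46.3, 68.8 and 146 RPKM in fat-poor tumours (log2 difference -0.92 ± 0.24, adjusted p = 0.0477). Both ranges overlapped. Adm had medians of 2.56 RPKM in fat-rich and 8.27 RPKM in fat-poor tumours (adjusted p = 0.103), and Ldha had medians of 636 and 650 RPKM in fat-rich and fat-poor tumours.

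Outside the lists, the largest decreases were modest. Igfbp3, a binding protein of insulin-like growth factors, had 11, 15.6 and 20.9 RPKM in fat-rich tumours, against 19.9, 30.2 and 53.1 RPKM in fat-poor tumours (log2 difference -0.95 ± 0.18, limma adjusted p = 0.00773). Kcne3, a potassium channel subunit, had 0.611, 1.42 and 3.20 RPKM in fat-rich tumours, against 1.82, 4.40 and 7.19 RPKM in fat-poor tumours (log2 difference -0.98 ± 0.23). Il24, a cytokine, had 0.679, 1.05 and 4.67 RPKM in fat-rich tumours, against 1.75, 4.24 and 5.82 RPKM in fat-poor tumours (log2 difference -0.97 ± 0.22). Ero1a, an oxidase of the endoplasmic reticulum, had 18.8, 24.7 and 31.2 RPKM in fat-rich tumours, against 28.1, 40.5 and 116 RPKM in fat-poor tumours (log2 difference -0.80 ± 0.18). The ranges of all 4 overlapped. Polr2k, Igsf9, Mphosph6, Sh3yl1, Set, Wsb1, Dap3, Bcas2, Gtf2e2 and Tpd52 fell by 0.26 to 0.60 on the log2 difference scale.

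The middle tumours, which the comparison did not use, gave a view of the same genes. The slope of log2(RPKM + 1) on the fat score over these 10 tumours had the sign of the difference for 241 of the 258 genes that rose (93.4%) and 13 of the 17 that fell (76.5%), against 63.5% of all genes tested. Among lists with a positive median difference, the median slope was negative for the caveola and lymphocyte lists and positive for the rest. Of 6 caveola slopes, 3 were positive (list median -0.052), as was 1 of 8 lymphocyte slopes (list median -0.30). Lists with a negative median difference did not all follow either. Of 20 proliferation slopes, 15 were positive (list median 0.21), as were 8 of 12 hypoxia slopes (list median 0.093). Of 11 ribosome biogenesis slopes, 4 were positive (list median -0.14). For 254 of the 275 genes the middle median lay between the medians of the other sets, which choosing genes with a wide gap favours. The share over all genes tested was not counted, so this count is a description. Within the deep libraries, and within the shallow ones, all 275 had the same sign, against 77.8% and 86.5% of all genes, tumours that the comparison itself had used. No gene passed within the 10 deep libraries, and 153 rose and 5 fell within the 10 shallow ones. Of 94 genes past the threshold that the naming rule took or a list held, 28 passed in all 20 fits that left out 1 tumour each, among them Car3, Fabp4, Dgat2, Pck1, Pparg, Cd36, Lpl, Lipe, Fasn, Adrb3, Trarg1, Cav1, Cyp2e1 and Igfbp3.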

How the data were processed

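The authors deposited 1 table of RPKM values from poly-A selected libraries, with 27902 RefSeq transcripts and 30 animals. No source used here names the unit; it was inferred from low values, of which 63.8 to 75.2% per library lay within 0.12 reads of a whole number, too few to rebuild counts. Per the submitters' processing notes, CASAVA 1.7.0 was used; the aligner, the build and any strand setting are not given in the sources used. Depth was inferred from low values of transcripts 150 to 2500 bases long and is approximate.

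Transcripts were named with RefSeq (26490) and GENCODE vM21 (154) tables; 1258 without a name (1.94% of RPKM) and 691 small RNA transcripts were left out. Each of the 20850 genes was represented by its transcript of highest mean. Genes averaging 1 RPKM or more entered limma 3.58.1 (R 4.3.3, empirical Bayes with trend) on log2(RPKM + 1); the pseudocount of 1 shrinks differences of low genes, and the 6 score genes were left out. The method was tested on simulated data with independent genes and groups fixed beforehand. That simulation did not copy a choice of tumours on measured values, or genes that vary together. P-values measure the spread between animals, technical variation included. Tables and plots used Python 3.11.15.

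The members and the gene lists were chosen with earlier results of these data known. Genes named were the score genes, the 15 outside all lists with the largest difference and the 5 with the smallest p in each direction past the threshold, 3 members per list by mean and difference, and 19 always taken, Pparg and Fabp4 among them; unnamed predicted genes were passed over. Other list members were named because they passed or stood beside one that did, after their values were seen. A few genes of the rule and lists are not reported here. Counts and medians of each list have those of all genes tested as background. Promoter windows came from RefSeq's GRCm38.p6 table. Alternatives changed the pseudocount, filter, scaling, score, limits of the sets, covariates and tumours.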

Additional observations from a re-analysis of the deposited data

Results flagged for a closer look

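In a set of 10 tumours, the highest or lowest tumour was picked out by its gap to the nearest other on the log2(RPKM + 1) scale. That gap, divided by the range of the set, had to exceed Dixon's critical value. Over 218 sets looked at, 14 held such a tumour, and chance gives about 1 in 20. The sets looked at included those of the score genes. In animal 4036, the fat-rich tumour with the highest score, Col1a1 had 1718 RPKM against a fat-rich median of 414 RPKM. Postn, a matrix protein, had 501 RPKM there against 186 RPKM. Lep was also picked out in animal 4036, at 5.30 RPKM against a fat-rich median of 0.805 RPKM. Lep is a gene of the score that ranked this tumour, so its flag is a description and not a test. The fat-rich animal 4139 had 4.6 RPKM of Insr against a median of 8.85 RPKM, and the fat-rich animal 4357 had 12.3 RPKM of Egln3 against 47.1 RPKM. Among fat-poor tumours, animal 4150 had 57.7 RPKM of Polr2k against a median of 24.9 RPKM, 12 RPKM of Igsf9 against 17.1 RPKM and 64.2 RPKM of Adipor1 against 95.1 RPKM. Animal 4438 had 116 RPKM of Ero1a against a fat-poor median of 40.5 RPKM, 18.1 RPKM of Ankrd37 against 5.15 RPKM and 6.52 RPKM of Mfap5 against 24.4 RPKM. Animal 4164 had 5.48 RPKM of Tcap against 1.5 RPKM and 6.63 RPKM of Myh2 against 0.293 RPKM, both muscle genes. Animal 4030 had 4.74 RPKM of Pdk4 against 0.472 RPKM.

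The difference between fat-rich and fat-poor tumours itself differed between deep and shallow libraries for 61 of the 13608 genes tested (limma interaction term, adjusted p of at most 0.05). For that term, 412 of the 13608 had an unadjusted p under 0.05. Of 170 tested genes that the naming rule took or that passed the main threshold in a list, 20 were among the 61. All 20 are genes that skeletal muscle holds. The log2 difference within the deep libraries minus that within the shallow ones was -4.39 for Myh8 (adjusted p = 0.00576), -4.11 for Des, -3.81 for Eef1a2, -3.59 for Myom2, -3.50 for Casq1, -3.44 for Actn2 and -3.44 for Ldb3. It was -3.43 for Mybpc1, -3.39 for Fhl1, -3.25 for Cox6a2, -3.21 for Pgam2 and -3.19 for Pygm (adjusted p = 0.0278). Among further members of the skeletal muscle list it was -5.46 for Pvalb (adjusted p = 0.0376), -5.13 for Myh1, -4.63 for Mylpf, -4.57 for Tnnc2, -4.31 for Tnni2, -4.29 for Myh2, -3.81 for Actn3 and -2.88 for Myoz1. The 6 shallow fat-rich tumours had 2902 RPKM or more of summed muscle genes and the 4 deep ones 756 RPKM or less. Insert size split these fat-rich tumours in the same way, so muscle, depth and insert size cannot be told apart in this difference.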

How the results depend on the processing

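The count of genes that rose (258) and fell (17) moved with most choices. It was 87 and 6 with the filter at 5 RPKM, 123 and 8 with no filter, 62 and 4 with insert size as a covariate, 11 and 1 with the stroma score, 46 and 2 without the animals with the most muscle (3273 and 4357), 153 and 5 within shallow libraries, and 0 and 0 within deep ones. It was 520 and 282 for 15 against 15 tumours, 966 and 317 for the score as a number over 30 tumours, 161 and 8 for a score from other fat cell genes, and 350 and 42 for a score from ranks. The fit for the score from other fat cell genes also tested the genes of that score, which its choice of tumours favours. Of the alternatives added after the data were seen, the muscle covariate gave 4 and 0, leaving out 4036, 3273 and 4357 gave 100 and 3, and leaving out the 5 fat-rich tumours with the highest scores gave 102 and 3. Leaving out 1 tumour gave 73 (without 4357) to 374 (without 4139) that rose and 3 (without 4142) to 45 (without 4038) that fell; without 4036 they were 208 and 9. Of 94 genes past the threshold that the naming rule took or a list held, 7 reversed, all with the muscle covariate: Atp2a1 to -0.1743, Ckm to -0.0848, Pygm to -0.0555, Mylpf to -0.0542, Tnnc2 to -0.0328, Myh1 to -0.01 and Myh4 to -0.0049. All of these but Pygm are genes of the muscle score itself, so that fit brings them near 0 and their sign has no meaning. None of the 7 passed the test with the muscle covariate. Of the 94, 4 passed with that covariate, 22 without animals 3273 and 4357, 11 with the stroma covariate, 28 with insert size, 54 within shallow libraries and 0 within deep ones. Apart from the sign of those muscle score genes, the cause of these changes was not tested. Another pseudocount, quantile or median ratio scaling, depth as a covariate, 5 against 5 tumours and limma without a trend left the count that rose between 201 and 295. No paired analysis was possible because the labels put all tumours in 1 group. Low genes such as Lep rest on few reads in shallow libraries.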

Other observations

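Genes of mast cells, which store proteases in granules, were among those that rose and were in no list; they are named here after their values were seen. Mcpt4, a mast cell chymase, averaged 7.50 ± 6.09 RPKM in fat-rich tumours and 1.25 ± 0.63 RPKM in fat-poor tumours (SD, n = 10 each; log2 difference 1.63 ± 0.33 SE, limma adjusted p = 0.0168). Tpsb2, a tryptase, averaged 5.32 ± 3.99 RPKM in fat-rich tumours and 0.97 ± 0.55 RPKM in fat-poor tumours (log2 difference 1.45 ± 0.31). Cpa3, a carboxypeptidase of the same granules, ranged from 0.623 to 14.5 RPKM in fat-rich tumours, against 0.315 to 1.23 RPKM in fat-poor tumours. Cma1 ranged from 0.693 to 10.8 RPKM in fat-rich tumours, against 0.152 to 1.56 RPKM in fat-poor tumours. The ranges of all 4 overlapped.

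Cd209d, Cd209f, Clec10a and Mgl2, which encode C-type lectins, also rose; they were chosen after their values were seen and stand for no wider group. Mrc1, a C-type lectin in the macrophage list, did not pass (log2 difference 1.07, adjusted p = 0.0665). Cd209d averaged 6.36 ± 3.63 RPKM in fat-rich tumours and 1.33 ± 0.51 RPKM in fat-poor tumours (SD, n = 10 each; log2 difference 1.54 ± 0.23 SE, limma adjusted p = 0.00136), without overlap. Cd209f averaged 19.4 ± 14.8 RPKM in fat-rich tumours and 4.88 ± 2.55 RPKM in fat-poor tumours. Clec10a and Mgl2 averaged 18.6 and 5.62 RPKM in fat-rich tumours, against 5.67 and 1.63 RPKM in fat-poor tumours. The Cd209 genes are close copies of each other, as are Clec10a and Mgl2, so their reads could be split between them. The macrophage list had 593 to 1053 RPKM summed over 11 genes in fat-rich tumours, against 394 to 755 RPKM in fat-poor tumours, and its part in these differences was not tested.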
